A study of Mus musculus with 20 samples.

Results

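The 33 genes described here are a module of the mouse antioxidant response: the transcription factor NRF2 (gene Nfe2l2) with its partners and inhibitors, the enzymes that make, recycle and use glutathione, the thioredoxin system, the enzymes that remove peroxide and superoxide, the pentose phosphate pathway and the metallothioneins. They were chosen by symbol for what they are known to do, by a rule that uses no measured value but was written with earlier results of these data known. All 33 were found among the 24421 genes of the count tables and were among the 12132 genes with enough counts to test. The counts come from bone marrow-derived macrophages of 5 mice, kept in medium that holds CSF-1. All cultures had 30% L929 medium and 20% serum. The cells of each mouse were treated for 48 h in 4 ways, which gave 20 libraries. LP is the lipoparticle alone, LP PIC and LP 3M are the single adjuvant formulations on it and LP 3M PIC is the dual one, so all 4 groups carry the lipoparticle. No group without a particle was analysed here. The labels do not spell out PIC or 3M and give no amounts, and they name no strain, sex or age of the mice. Where the dual formulation is set against a single one, equal amounts of each adjuvant in both are assumed.

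As background, NRF2 is held in the cytoplasm by KEAP1, which marks it for degradation. Electrophiles and oxidants modify KEAP1, and p62 (gene Sqstm1) can bind it in place of NRF2. NRF2 then enters the nucleus, pairs with a small MAF protein and binds antioxidant response elements, where BACH1 otherwise sits as a repressor. Its targets import cystine for glutathione, reduce peroxides and quinones and supply NADPH. Activated macrophages also make superoxide with the NADPH oxidase, itself a user of NADPH, and they import cystine through the SLC7A11 transporter. Cystine import is controlled by the amino acid response through ATF4 as well as by NRF2.

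The promoters of 4 members are shown because they hold the short elements through which these factors act. The 4 genes did not all move alike. RefSeq windows of 250 bases before to 10 after a start site, on GRCm38.p6, were at hand for 29 of the 33 members, but not for Abcc1, Gclc, Gsr and Prdx6. Capitals mark the core of the amino acid response element in Slc7a11 (TGATGCAA) and of the antioxidant response element in the other 3 (TGACNNNGC), on either strand. Each sequence is printed in the direction of the gene, up to the base before its first annotated transcript.
Slc7a11 promoter (chr3:50443615-50443863, reverse strand): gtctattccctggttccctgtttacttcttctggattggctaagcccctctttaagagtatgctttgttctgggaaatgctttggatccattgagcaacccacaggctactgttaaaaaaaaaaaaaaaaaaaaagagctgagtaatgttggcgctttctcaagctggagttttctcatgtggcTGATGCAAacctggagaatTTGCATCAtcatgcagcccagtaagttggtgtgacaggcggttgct
Mafg promoter (chr11:120633601-120633797, reverse strand): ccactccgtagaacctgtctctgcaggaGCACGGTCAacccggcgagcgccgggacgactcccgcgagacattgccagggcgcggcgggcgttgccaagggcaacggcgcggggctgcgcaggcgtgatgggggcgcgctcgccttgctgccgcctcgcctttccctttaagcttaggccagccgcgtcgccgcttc
Gclm promoter (chr3:122245307-122245556, forward strand): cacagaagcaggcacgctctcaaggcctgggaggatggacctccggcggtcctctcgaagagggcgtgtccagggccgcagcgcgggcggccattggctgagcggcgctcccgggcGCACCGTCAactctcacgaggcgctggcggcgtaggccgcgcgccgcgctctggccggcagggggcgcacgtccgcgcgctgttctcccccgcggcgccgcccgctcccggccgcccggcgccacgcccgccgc
Prdx1 promoter (chr4:116685349-116685543, forward strand): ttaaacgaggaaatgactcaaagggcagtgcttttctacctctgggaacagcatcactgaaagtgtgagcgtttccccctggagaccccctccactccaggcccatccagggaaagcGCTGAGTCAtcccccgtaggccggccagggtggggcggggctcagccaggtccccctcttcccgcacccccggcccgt

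Slc7a11 held 2 copies of the amino acid response element core, facing each other. At least 1 copy was present in 0.828% of all 32851 windows and 2 or more in 0.00609%, and no other member had one. The antioxidant response element core was in the windows of 11 of the 29 members (37.9%) and of 12.0% of all 27025 genes with a window. The 11 were Nfe2l2, Mafg, Mafk, Gclm, Sod1, Txnrd1, Prdx1, Blvra, G6pdx, Me1 and Mt2, and they did not share a direction: below, Prdx1 and Me1 rose with LP 3M, Mafk fell, and Gclm was not called. In Prdx1, Me1 and Mt2 the match overlaps one to the AP-1 element (TGANTCA), which was in 5 members (17.2%) and in 8.12% of genes. The core of the metal response element (TGCGCNC or TGCACNC) was in 8 members (27.6%), Mt1 and Mt2 among them, and in 24.8% of genes. These are matches of letters in short windows, not measured binding sites.

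Library totals ran from 9.74 to 23.9 M counts (M, mega), with means of 20.4 ± 5.96 for LP, 21.9 ± 2.58 for LP PIC, 22.6 ± 0.848 for LP 3M and 20.0 ± 4.53 for the dual formulation (SD, n = 5 per group here and throughout). The lowest count of any member in any library was 53. Levels are given in CPM, in which each library's gene counts are brought to the same total. All 10 macrophage markers were present, and their summed level ran from 12310 to 19924 CPM for LP, 14169 to 20437 for LP PIC, 21548 to 27556 for LP 3M and 11972 to 16752 for the dual formulation. Of the 11 neutrophil markers 10 were in the tables, with sums of 2.16 to 10.5, 14.8 to 70.3, 73.1 to 609 and 203 to 3810 CPM in the same order, mostly from Lcn2, which macrophages can also make. S100a8, a further marker of the list, averaged 1.69, 2.90, 9.07 and 133 CPM, with 536 in 1 library of the dual formulation. S100a9, also on the list, averaged 0.0882, 0.295, 0.0796 and 0.106 CPM in the same order. Retnlg was at 0 in all 4 groups, and Elane or Cxcr2 or both in 3 of them. T or NK, B, erythroid and mast cell or basophil markers summed to at most 5.70 CPM in any library and dendritic cell markers to at most 46.2, nearly all Ccr7. Fibroblast markers summed to between 15.8 and 136.5 CPM, with Lum at 0 in LP and LP PIC, and endothelial markers, nearly all Kdr, to between 17.6 and 154. The part of these cells in the results was not tested. In bulk RNA, fewer cells of a type and less RNA per cell cannot be told apart.

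Genes were tested with edgeR's quasi-likelihood test on all 12132 genes at once, with a mean per condition and no term for the mouse. The calls therefore do not use the pairing of libraries by mouse. With the mouse as a block, 22 further member results over the 7 comparisons were called and 1 was lost. Genes with an adjusted p under 0.05 over all of them are written as having risen or fallen. Log2 changes are given with the SE from that test. A change with an adjusted p under 0.05 went the same way in all 5 mice where no count of mice is printed with it. For the other changes, the lack of such a count does not mean that all 5 mice went one way. The comparisons with LP share the LP libraries. LP PIC changed 18 of the 33 members: 6 rose and 12 fell, which is 18.2% and 36.4%, where 22.7% of all tested genes rose and 22.7% fell. Their median log2 change was 0.084. LP 3M changed 17, of which 15 rose (45.5%, against 20.0% of all genes) and 2 fell (6.06%, against 19.5%), with a median of 0.31. LP 3M PIC changed 22, of which 13 rose (39.4%, against 31.7%) and 9 fell (27.3%, against 30.6%), with a median of 0.053. Over all genes the medians were −0.000357, −0.013 and 0.016. The share of members called in either direction was thus not far from that of all genes, 54.5 against 45.5% with LP PIC, 51.5 against 39.5% with LP 3M and 66.7 against 62.2% with LP 3M PIC. Log2 changes of 1 or more were rarer than among all genes with LP PIC, 2 members or 6.06% against 13.1%. With LP 3M there were 3 such members, 9.09% against 9.60%, and with LP 3M PIC 6, 18.2% against 22.1%.

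**Figure D1:**
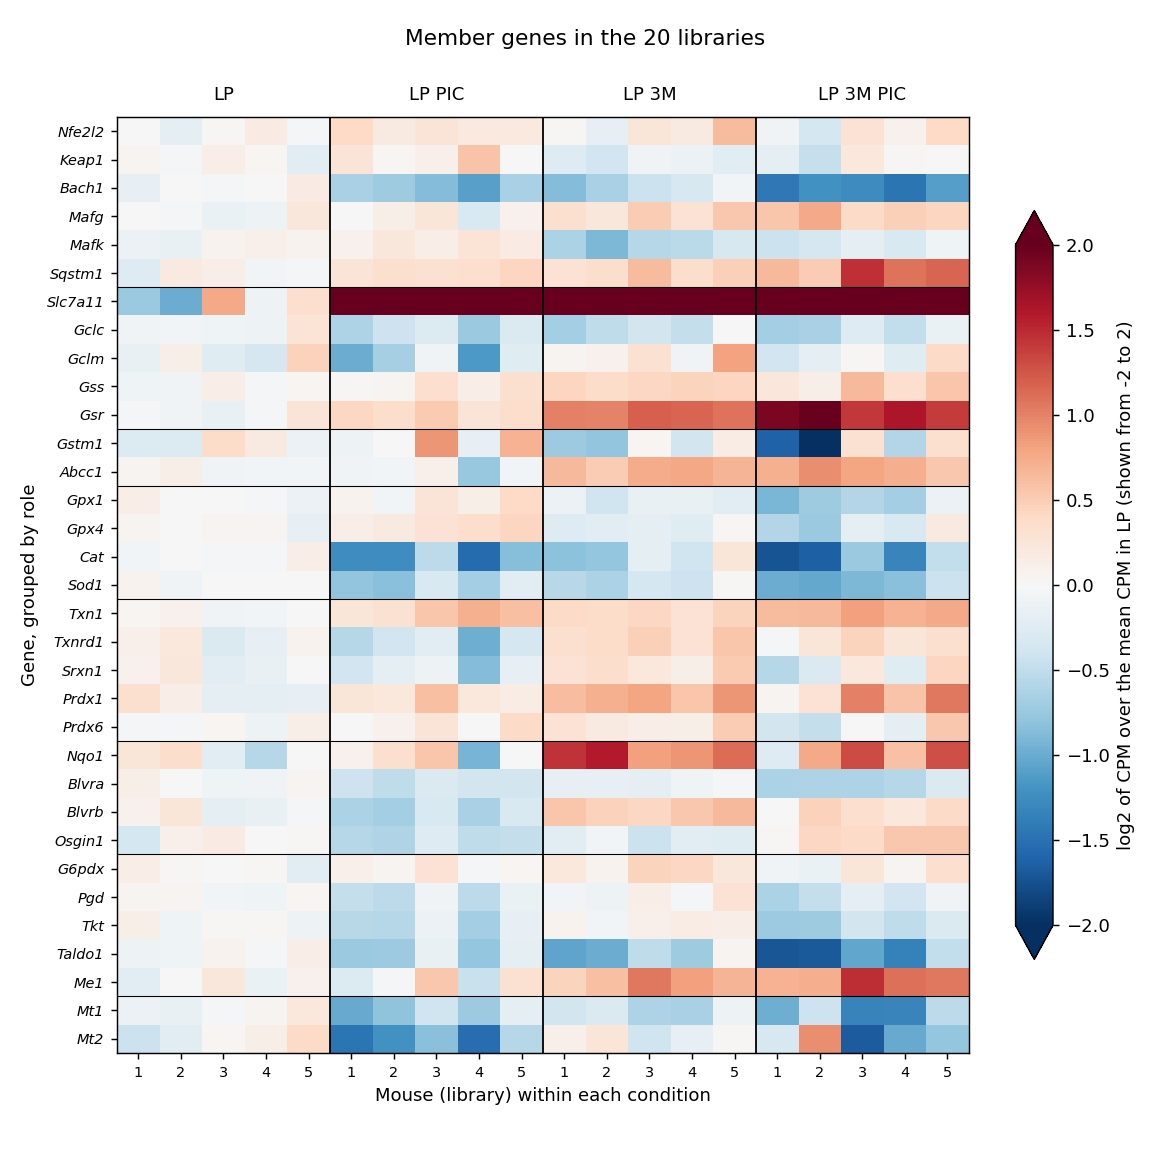
The colour of each cell is the log2 of a library's CPM over the mean CPM in LP, from −2 to 2, with the 33 members in rows by role and the 20 libraries in columns by condition and mouse. Slc7a11 is red in all 15 adjuvant libraries, while Bach1 lies below its LP mean in them.

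Set directly against LP PIC, LP 3M had 20 of the 33 members higher (60.6%, against 24.4% of all genes) and 4 lower (12.1%, against 22.7%), together 72.7% against 47.1%. LP 3M PIC had 15 higher than LP PIC (45.5%, against 23.1%) and 5 lower (15.2%, against 21.4%), together 60.6% against 44.5%. Against LP 3M it had 6 higher (18.2%, against 20.5%) and 9 lower (27.3%, against 21.0%), together 45.5% against 41.5%. The members were thus more often higher with either 3M formulation than with LP PIC. Leaving out mouse 4 left 12 of the 20 higher calls and 1 of the 4 lower ones between LP 3M and LP PIC, and scaling by plain library totals gave 18 and 4. Over all genes that scaling turned 2959 higher and 2753 lower into 2426 and 3410. Of the called values against LP, 8 for LP PIC, 3 for LP 3M and 2 for LP 3M PIC were lost when 1 mouse or library was left out, and each is named with its gene below. Mouse 4 bore on the most LP PIC calls: without it 3 members rose and 7 fell. Over all genes, leaving out mouse 4 cut the LP PIC calls from 5517 to 4195. It cut those between LP 3M and LP PIC from 5712 to 4209. With plain library totals 3 rose and 13 fell with LP PIC and 13 rose and 5 fell with LP 3M. Over all genes that scaling turned 2422 risen and 2368 fallen with LP 3M into 1687 and 3564 and 2758 and 2759 with LP PIC into 2373 and 3078, and with LP 3M PIC it turned 3840 and 3711 into 3060 and 4541.

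The interaction asks whether PIC changed a gene by a different amount on particles with 3M than on LP. It is the log2 change from LP 3M to LP 3M PIC less that from LP to LP PIC. Of the 33 members 1 had a positive interaction, Osgin1, and 2 a negative one, Slc7a11 and Gpx1, that is 3.03% and 6.06% where 3.82% and 4.62% of all genes were called, and 9.09% against 8.43% in either direction. An interaction of 1 or more in size was called for 2 members, 6.06% against 3.59%. With the mouse as a block, 2 were positive and 4 negative, with Gclc (adjusted p = 0.00832 against 0.172 without the block), Gpx4 (0.049 against 0.11) and Prdx6 (0.0135 against 0.115) added. Without mouse 5, those of Gpx4 (0.0429) and Prdx6 (0.0104) were called too.

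**Figure D2:**
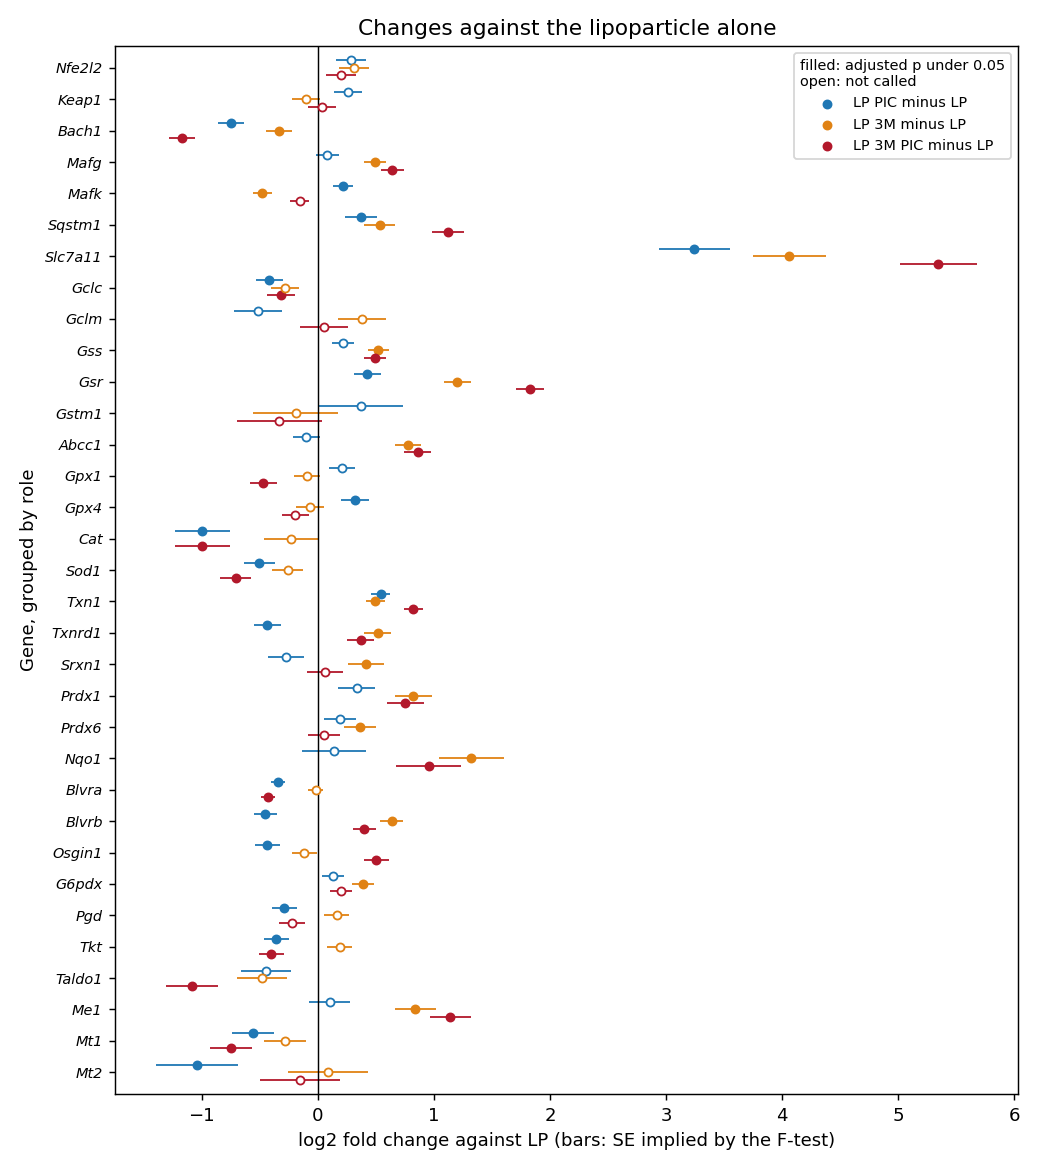
Points are the log2 fold changes of the 33 members against LP for LP PIC (blue), LP 3M (orange) and LP 3M PIC (red), bars their SE, and filled points have an adjusted p under 0.05. Slc7a11 stands apart at 3.24, 4.06 and 5.35, and the remaining values lie between −1.17 and 1.83.

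Of the regulators, Nfe2l2 and Keap1 were not called against LP, while the repressor Bach1 fell with every formulation and the small MAF genes moved in their own ways. Nfe2l2, which codes for NRF2 itself (chr2:75675513-75704641), averaged 243 ± 20.8 CPM in LP, 289 ± 19.4 under LP PIC, 281 ± 60.1 under LP 3M and 259.6 ± 51.6 under LP 3M PIC. Its log2 changes against LP were 0.29 ± 0.13 (adjusted p = 0.0745, 0.0185 with the mouse as a block and 0.0433 without the LP 3M library of mouse 5), 0.31 ± 0.13 (0.0615, 0.0201 with the block and 0.0306 without mouse 2) and 0.20 ± 0.13 (0.183, 4 of 5 mice). In a fit of the LP PIC and LP libraries alone, the LP PIC change was called too (0.00992). NRF2 is controlled mainly as a protein, which these data do not show. Keap1, the adaptor that targets NRF2 for degradation, averaged 87.1 ± 7.55, 101 ± 17.2, 75.6 ± 6.45 and 83.2 ± 14.1 CPM in the same order. Its changes were 0.26 ± 0.12 with LP PIC (adjusted p = 0.0887, 4 of 5 mice, 0.0248 with the block and 0.0417 without mouse 3), −0.098 ± 0.12 with LP 3M (0.544) and 0.040 ± 0.12 with LP 3M PIC (0.787, and −0.068 with plain library totals).

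Bach1, the heme-binding repressor of the same elements, was highest in LP, at 82.8, 92.4, 89.5, 93.1 and 104 CPM in mice 1 to 5 (chr16:87698945-87733346). LP PIC brought it to 58.6, 56.5, 50.4, 43.4 and 58.6 CPM, and LP 3M to 50.6, 58.9, 68.6, 74.1 and 88.5. Under the dual formulation it stood at 34.3, 40.1, 38.7, 33.6 and 42.8 CPM. The LP PIC and LP 3M PIC libraries lay below every LP library, and those of the dual formulation below every other group, while LP 3M of mouse 5 lay inside the LP range. Bach1 fell by 0.74 ± 0.11 with LP PIC (adjusted p = 2.7e-05) and by 1.17 ± 0.11 with LP 3M PIC (4.9e-08). With LP 3M it fell by 0.33 ± 0.11 (0.0232), a call lost without mouse 1, 2 or 3 (0.0596 to 0.101). The dual formulation had less Bach1 than LP 3M (−0.84 ± 0.11, adjusted p = 1.62e-05) and than LP PIC (−0.43 ± 0.11, 0.00494).

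Mafg and Mafk code for small MAF proteins, the partners that both NRF2 and BACH1 need to bind DNA. Mafg averaged 47.6 ± 4.94 CPM in LP, 49.0 ± 6.66 under LP PIC, 62.2 ± 6.16 under LP 3M and 68.6 ± 7.40 under LP 3M PIC. It rose by 0.49 ± 0.097 with LP 3M (adjusted p = 0.000504) and by 0.64 ± 0.097 with LP 3M PIC (1.12e-05), and its change with LP PIC was 0.084 ± 0.097 (0.506, 3 of 5 mice). Mafk averaged 46.9 ± 3.87, 53.1 ± 2.69, 31.4 ± 4.36 and 39.1 ± 3.69 CPM in that order. It fell by 0.48 ± 0.085 with LP 3M (0.000227), was lower with LP 3M than with LP PIC (−0.69 ± 0.085, 3.51e-06) and was not called with LP 3M PIC (−0.16 ± 0.085, 0.116, and −0.27 with 0.0131 under plain library totals). With LP PIC it rose by 0.22 ± 0.085 (0.0412), a call lost without mouse 1, 2, 4 or 5 or the LP library of mouse 2 (0.0506 to 0.114) and with plain library totals (0.106). Mafg overlaps Sirt7 on the same strand and Mafk overlaps Tmem184a on the other strand.

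Sqstm1 codes for p62, the autophagy receptor that binds KEAP1, and is itself a known NRF2 target. In LP its level was 985, 1325, 1279, 1130 and 1141 CPM in mice 1 to 5. The single formulations gave 1399, 1464, 1452, 1481 and 1581 CPM (LP PIC) and 1427, 1494, 1824, 1491 and 1628 CPM (LP 3M). The dual formulation gave 1831, 1670, 3215, 2492 and 2633 CPM. No library with an adjuvant fell inside the LP range. Each mouse was highest with LP 3M PIC, where mice 3, 4 and 5 stood above mice 1 and 2. It rose by 1.12 ± 0.14 with LP 3M PIC (adjusted p = 9.41e-07), which was above LP 3M (0.59 ± 0.14, 0.00198) and above LP PIC (0.75 ± 0.14, 0.000249). It rose by 0.53 ± 0.14 with LP 3M (0.00446) and by 0.37 ± 0.14 with LP PIC (0.0312). The LP PIC call was lost without mouse 1, 4 or 5 (0.0932 to 0.120) and with plain library totals (0.0570).

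Slc7a11, the cystine importer of system xc- that supplies cysteine for glutathione (chr3:49892526-50443614), rose the most of the 33 members with each formulation. LP libraries held 6.48, 5.44, 18.3, 10.1 and 13.6 CPM in mice 1 to 5. With LP PIC these were 93.9, 113, 142, 56.5 and 103 CPM. With LP 3M they were 197, 181, 214, 130.1 and 129.8 CPM. The dual formulation had 329, 420.1, 528, 401 and 399.8 CPM. All adjuvant libraries lay above all LP libraries, LP PIC and LP 3M overlapped, and LP 3M PIC lay above both. The rise was 3.24 ± 0.31 on the log2 scale with LP PIC (9.48-fold, adjusted p = 1.23e-07), 4.06 ± 0.32 with LP 3M (16.7-fold, 2.08e-08) and 5.35 ± 0.34 with LP 3M PIC (40.7-fold, 3.37e-10). LP 3M was above LP PIC by 0.82 ± 0.28 (0.0217), a call lost without mouse 1 (0.0735) or mouse 4 (0.0783). Adding PIC raised Slc7a11 by 1.28 ± 0.28 on particles with 3M (0.00135), a smaller log2 change than on LP. In CPM, the mean went from 10.8 to 102 when PIC was added to LP and from 170 to 416 on particles with 3M. The interaction, which is on the log2 scale, was −1.96 ± 0.40 (adjusted p = 0.00628) and was lost without mouse 1 (0.0677). The promoter shown above with the paired amino acid response cores is that of this gene. Its level in LP varied the most of the members, with an SD that was 49.1% of the mean.

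**Figure D3:**
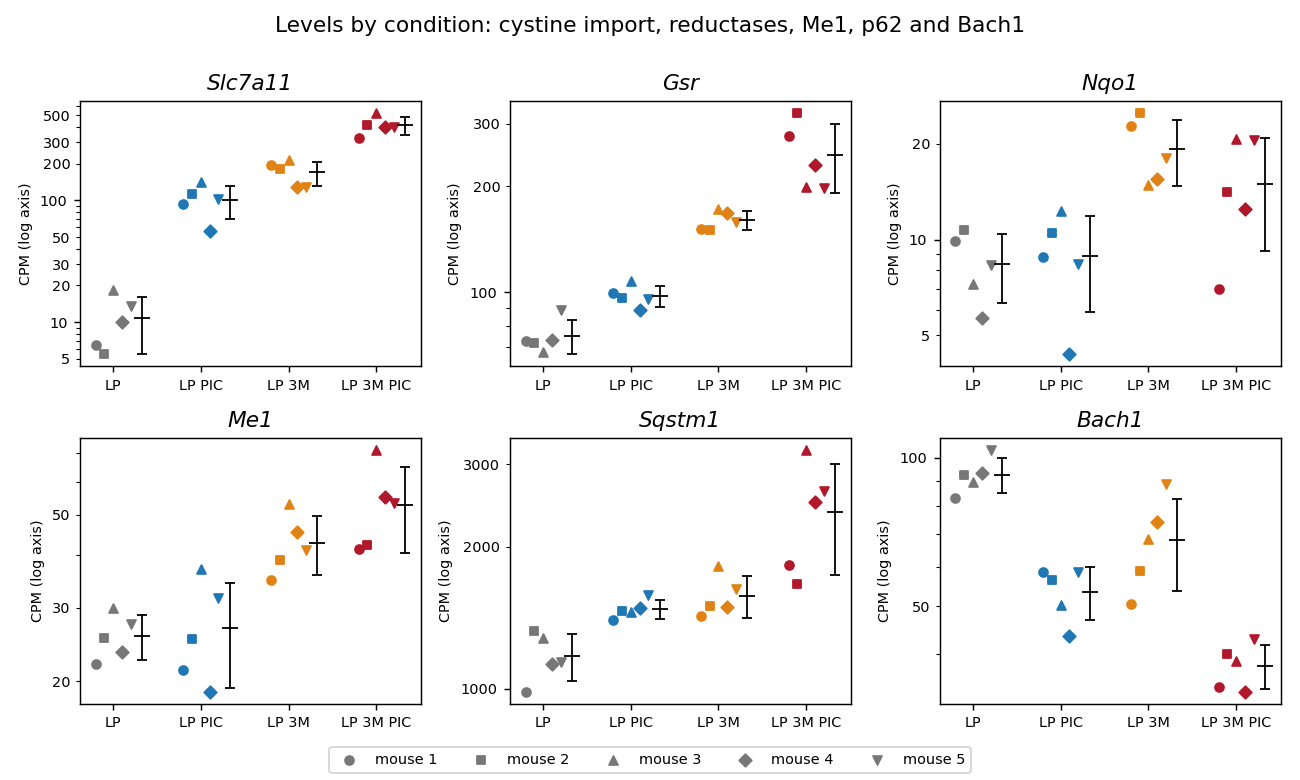
Each point is the CPM of 1 library on a log axis, with the mouse given by its symbol, and black bars are the mean and SD of 5 mice. Slc7a11 runs from 5.44 CPM in an LP library to 528 in an LP 3M PIC library, Gsr climbs from LP to LP 3M PIC, and Bach1 goes the other way.

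Of the genes that join the amino acids of glutathione, Gclc fell with LP PIC and LP 3M PIC, Gclm was not called against LP and Gss rose with both 3M formulations. Gclc and Gclm code for the catalytic and modifier subunits of glutamate-cysteine ligase, the rate-limiting enzyme. Gclc averaged 64.5 ± 7.48 CPM in LP, 46.9 ± 6.51 under LP PIC, 49.1 ± 9.08 under LP 3M and 48.0 ± 8.23 under LP 3M PIC. It fell by 0.42 ± 0.12 with LP PIC (adjusted p = 0.00809, and 0.0510 without mouse 4) and by 0.32 ± 0.12 with LP 3M PIC (0.0276, and 0.0626 to 0.0907 without mouse 1, 2 or 4). With LP 3M its change was −0.29 ± 0.12 (0.065, 0.00103 with the mouse as a block, 0.0207 with plain library totals, 0.0176 without mouse 5 and 0.0104 without its LP 3M library). DESeq2 called that change as well (0.0497). Gclm averaged 174 ± 41.2, 118 ± 37.9, 210.1 ± 55.1 and 167 ± 37.2 CPM. Its changes of −0.52 ± 0.21 with LP PIC (0.052, 4 of 5 mice) and 0.38 ± 0.21 with LP 3M (0.159) were not called, but were with the mouse as a block (0.000505 and 0.00985). The LP PIC change was also called with DESeq2 (0.031) and with plain library totals (0.0443). So it was without mouse 3 (0.0267), mouse 5 (0.0461) or the LP 3M library of mouse 5 (0.0381). Under LP 3M PIC it was 0.052 ± 0.21 (0.839, 3 of 5 mice), and −0.059 with plain library totals. Gclm was higher with LP 3M than with LP PIC (0.89 ± 0.21, 0.00199).

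Gss, the synthetase of the second step, rose by 0.52 ± 0.094 with LP 3M (adjusted p = 0.000228) and by 0.49 ± 0.094 with LP 3M PIC (0.000152), from 15.5 ± 0.990 to 20.6 ± 0.361 and 20.2 ± 3.13 CPM. With LP PIC it stood at 17.5 ± 1.82 CPM (0.22 ± 0.094, 0.0652, and 0.0171 with the block). Gss overlaps Acss2 on the other strand. Gsr codes for glutathione reductase, which regenerates glutathione from its disulfide with NADPH. LP gave 72.6, 71.7, 67.8, 73.2 and 89.1 CPM of Gsr in mice 1 to 5. LP PIC gave 99.5, 96.0, 107, 89.2 and 95.7 CPM and LP 3M 151, 149.7, 172, 168 and 158 CPM. LP 3M PIC gave 277, 323, 199, 230.0 and 197 CPM. The 4 groups did not overlap: LP was lowest, then came LP PIC, then LP 3M, and the dual formulation was highest. Gsr rose by 0.43 ± 0.12 (0.00601), 1.20 ± 0.12 (3.38e-07) and 1.83 ± 0.12 (3.58e-10) against LP. LP 3M PIC was above LP 3M by 0.63 ± 0.12 (0.000328) and LP 3M was above LP PIC by 0.78 ± 0.12 (3.13e-05). The interaction, 0.20 ± 0.17, was not called (0.496).

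Of the genes that use or export glutathione, Abcc1, which codes for the transporter MRP1 that exports glutathione conjugates, rose by 0.78 ± 0.11 with LP 3M (adjusted p = 3.24e-05) and 0.86 ± 0.11 with LP 3M PIC (2.57e-06), from 210.3 ± 11.4 CPM to 334 ± 23.5 and 353 ± 34.7. With LP PIC it averaged 191 ± 38.8 CPM (−0.098 ± 0.11, 0.511, 3 of 5 mice, and 0.013 without mouse 4), where mouse 4 stood at 124 CPM and the others at 200.1 to 225 CPM. Gstm1, a glutathione S-transferase of a family of near-identical genes whose reads are hard to assign, was not called in any of the 7 comparisons, but with the mouse as a block it was lower with LP 3M PIC than with LP PIC (0.00702). It ranged from 302 to 469 CPM in LP, 326 to 676 under LP PIC, 211 to 406 under LP 3M and 91.0 to 455 under LP 3M PIC.

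Cat, Sod1, Gpx1 and Gpx4 are the 4 members grouped as enzymes that remove peroxide or superoxide. With LP 3M PIC 3 of them fell (75%, against 30.6% of all genes). None rose with LP 3M or LP 3M PIC, where 20.0 and 31.7% of all genes rose. Prdx1 and mitochondrial Sod2, described below, rose with both. Cat codes for catalase, which splits hydrogen peroxide. LP libraries held 544 to 622 CPM and LP 3M libraries 321 to 671, against 194 to 394 with LP PIC and 171 to 404 with LP 3M PIC. All LP PIC and LP 3M PIC libraries were below all LP libraries. Cat fell by 0.99 ± 0.23 with LP PIC (adjusted p = 0.00201) and 0.99 ± 0.24 with LP 3M PIC (0.00117) and was not called with LP 3M (−0.23 ± 0.23, 0.451, 4 of 5 mice). Sod1, the cytosolic superoxide dismutase, fell by 0.50 ± 0.13 (0.0043) and 0.71 ± 0.13 (0.000125) in the same comparisons. With LP 3M its change was −0.26 ± 0.13 (0.127, 4 of 5 mice, 0.0138 with the mouse as a block, 0.0383 with plain library totals, 0.0101 without mouse 5 and 0.0302 without its LP 3M library). Sod1 averaged 258 ± 9.05 CPM in LP, 176 ± 35.1 under LP PIC, 200.3 ± 37.6 under LP 3M and 146 ± 26.5 under LP 3M PIC and overlaps Scaf4 on the other strand.

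Gpx1 and Gpx4 code for glutathione peroxidases, Gpx4 being the one that reduces lipid peroxides in membranes. Gpx1 held 323 to 381 CPM in LP, 337 to 462 under LP PIC, 263 to 322 under LP 3M and 186 to 322 under LP 3M PIC. It fell with LP 3M PIC by 0.47 ± 0.11 (adjusted p = 0.00141, 4 of 5 mice), to below LP PIC (−0.68 ± 0.11, 0.000115). Neither single formulation was called, at 0.21 ± 0.11 (0.142) and −0.094 ± 0.11 (0.537). Its interaction was −0.58 ± 0.16 (0.0302), a call lost without mouse 1, 2, 3 or 4 or the LP library of mouse 2 (0.0532 to 0.170). Gpx4 rose by 0.32 ± 0.12 with LP PIC (0.0333), a call lost without mouse 1, 3, 4 or 5 or the LP library of mouse 2 (0.0502 to 0.116) and with plain library totals (0.0735). It was −0.068 ± 0.12 with LP 3M (0.682) and −0.19 ± 0.12 with LP 3M PIC (0.168, −0.30 with 0.0439 under plain library totals and −0.37 with 0.00386 without mouse 5), and it was lower with LP 3M PIC than with LP PIC (−0.52 ± 0.12, 0.00188). Its means were 278 ± 17.1, 338 ± 27.6, 247 ± 20.1 and 227 ± 58.5 CPM.

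All 5 genes grouped under the thioredoxin system rose with LP 3M (100%, against 20.0% of all genes). With LP 3M PIC 3 of them rose (60%, against 31.7%) and with LP PIC 1 (20%, against 22.7%). The LP 3M calls of Srxn1 and Prdx6 did not stand in every alternative. Txn1, the thioredoxin that reduces protein disulfides, rose by 0.54 ± 0.081 (adjusted p = 2.46e-05), 0.49 ± 0.081 (9.87e-05) and 0.82 ± 0.081 (6.18e-08) with the PIC, 3M and dual formulations, from 245 ± 10.9 CPM to 345 ± 47.9, 319 ± 13.0 and 400.2 ± 21.3. Txnrd1, the NADPH-dependent reductase of thioredoxin, went in both directions. It fell by 0.43 ± 0.12 with LP PIC (0.00488, 4 of 5 mice) and rose by 0.52 ± 0.12 with LP 3M (0.00166), and LP 3M was above LP PIC by 0.95 ± 0.12 (3.69e-06). Its rise with LP 3M PIC was 0.37 ± 0.12 (0.00961), lost without mouse 3 (0.0823) and with plain library totals (0.0851). The means were 375 ± 51.6 CPM in LP, 269 ± 51.1 under LP PIC, 496 ± 39.3 under LP 3M and 447 ± 53.6 under LP 3M PIC. Txnrd1 overlaps Eid3 on the same strand.

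Prdx1, a peroxiredoxin that thioredoxin recharges, averaged 1948 ± 328 CPM in LP, 2381 ± 324 under LP PIC, 3192 ± 287 under LP 3M and 3050 ± 901 under LP 3M PIC. It rose by 0.82 ± 0.16 with LP 3M (adjusted p = 0.00044) and 0.76 ± 0.16 with LP 3M PIC (0.000366, 4 of 5 mice), and its change with LP PIC was 0.33 ± 0.16 (0.0906, and 0.0386 without mouse 1). In a fit of the LP PIC and LP libraries alone, that LP PIC change was called (0.0385). Srxn1, the sulfiredoxin that repairs overoxidised peroxiredoxins, and Prdx6, a peroxiredoxin that works with glutathione, had the smaller LP 3M changes of the group. Srxn1 rose by 0.42 ± 0.15 (0.0365), lost without any 1 of the 5 mice (0.0591 to 0.107) and with plain library totals (0.142). Prdx6 rose by 0.36 ± 0.14 (0.041), lost without mouse 1, 2, 3 or 4, the LP library of mouse 2 or the LP 3M library of mouse 5 (0.0764 to 0.131) and with plain library totals (0.163). With LP 3M PIC they were 0.062 ± 0.15 (0.739) and 0.053 ± 0.14 (0.748), with both signs turning under plain library totals (−0.048 and −0.052). With LP PIC they were −0.27 ± 0.15 (0.154) and 0.19 ± 0.14 (0.26).

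Nqo1, the quinone reductase often used as a readout of NRF2, rose with LP 3M and LP 3M PIC and was not called with LP PIC. In LP it was read at 9.92, 10.7, 7.23, 5.66 and 8.31 CPM in mice 1 to 5. In LP PIC it was read at 8.84, 10.5, 12.3, 4.37 and 8.41 CPM. In LP 3M it was read at 22.7, 25.0, 14.8, 15.5 and 18.1 CPM, and in LP 3M PIC at 7.01, 14.1, 20.7, 12.5 and 20.5 CPM. The LP 3M libraries all lay above the LP and LP PIC libraries, whereas LP 3M PIC of mouse 1 lay inside the LP range. The rise was 1.32 ± 0.28 with LP 3M (adjusted p = 0.00102) and 0.95 ± 0.28 with LP 3M PIC (0.00595, 4 of 5 mice), and the change with LP PIC was 0.14 ± 0.28 (0.709, 2 of 5 mice, and −0.039 without mouse 3). LP 3M was above LP PIC by 1.18 ± 0.27 (0.00181).

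Blvra and Blvrb code for biliverdin reductases, of which that of Blvra turns the product of heme oxygenase into bilirubin. Blvrb fell by 0.45 ± 0.099 with LP PIC (adjusted p = 0.000978) and rose by 0.64 ± 0.099 with LP 3M (5.69e-05) and 0.40 ± 0.099 with LP 3M PIC (0.0016). The direct difference of LP 3M from LP PIC was 1.09 ± 0.10 (2.17e-07). Its means were 184 ± 23.1 CPM in LP, 129.9 ± 17.6 under LP PIC, 264 ± 16.1 under LP 3M and 224 ± 27.4 under LP 3M PIC. Blvra fell by 0.34 ± 0.061 with LP PIC (0.000166) and 0.43 ± 0.062 with LP 3M PIC (6.41e-06) and was −0.019 ± 0.061 with LP 3M (0.828, 3 of 5 mice, and 0.010 without mouse 1).

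Osgin1, an oxidative stress-induced growth inhibitor known as an NRF2 target, was the member whose response to PIC turned with the particle. The LP libraries stood at 28.4, 39.2, 40.7, 36.7 and 36.9 CPM in mice 1 to 5. LP PIC libraries stood at 24.5, 23.9, 30.5, 25.7 and 26.0 CPM and LP 3M libraries at 31.4, 34.9, 27.1, 31.5 and 30.6 CPM. LP 3M PIC libraries stood at 36.9, 48.6, 47.2, 53.1 and 52.8 CPM, all above those of both single formulations. Osgin1 fell by 0.43 ± 0.11 when PIC was added to LP (adjusted p = 0.00287) and rose by 0.62 ± 0.11 when it was added to particles with 3M (0.000172). The interaction was 1.05 ± 0.15 (0.000359) and was called in every alternative tried. LP 3M alone was not called (−0.12 ± 0.11, 0.409, 4 of 5 mice), and LP 3M PIC was above LP by 0.50 ± 0.11 (0.000465).

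**Figure D4:**
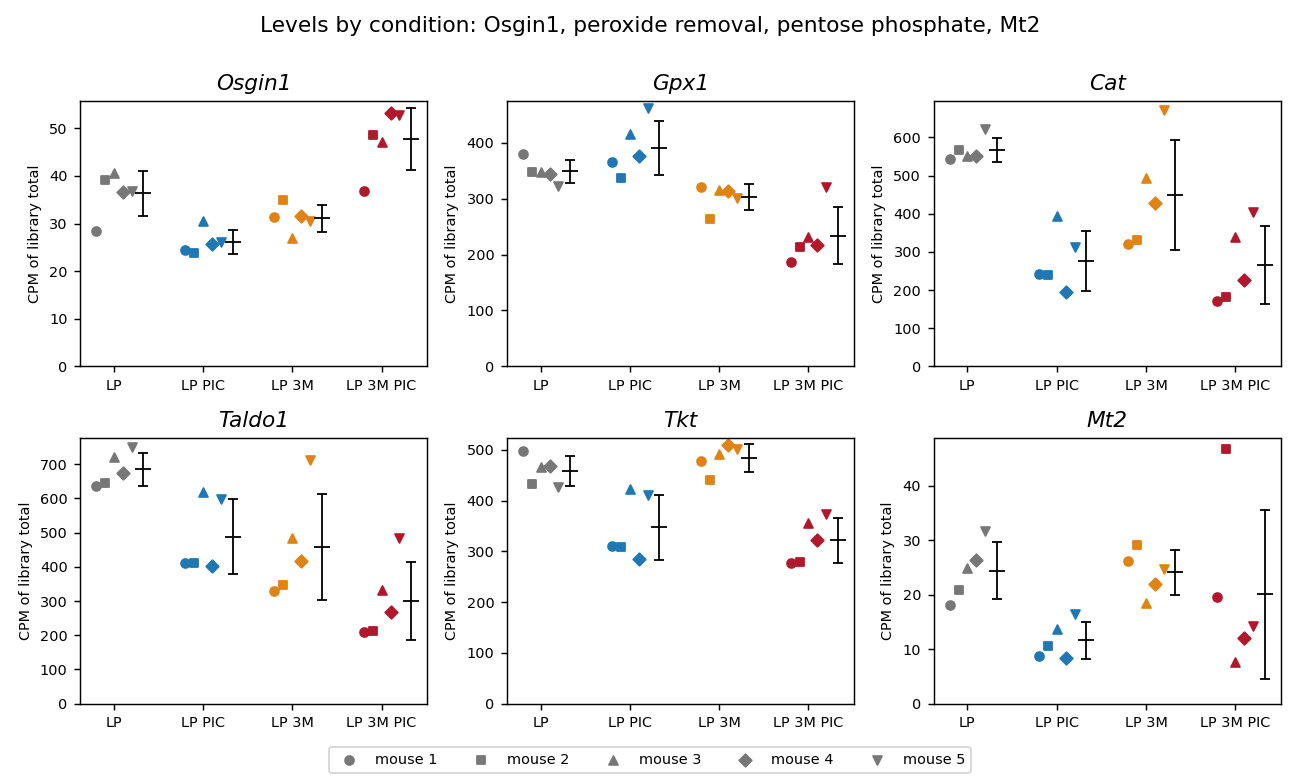
Each point is the CPM of 1 library on an axis from 0, with the mouse given by its symbol, and black bars are the mean and SD of 5 mice. Osgin1 is highest with LP 3M PIC, Gpx1 and Taldo1 are lowest there, Cat and Tkt are low in both groups with PIC, and Mt2 of mouse 2 stands at 46.7 CPM with LP 3M PIC.

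Of the pentose phosphate and NADPH genes, G6pdx of the oxidative arm rose with LP 3M and Pgd of that arm fell with LP PIC, Taldo1 and Tkt of the non-oxidative arm fell with LP 3M PIC, and Me1 rose with both 3M formulations. G6pdx codes for glucose-6-phosphate dehydrogenase and Pgd for the next dehydrogenase, and both steps make NADPH. G6pdx averaged 300.5 ± 25.9 CPM in LP, 320.2 ± 28.5 under LP PIC, 365 ± 39.1 under LP 3M and 320.3 ± 44.9 under LP 3M PIC. It rose by 0.39 ± 0.095 with LP 3M (adjusted p = 0.00304) and was 0.13 ± 0.095 with LP PIC (0.266) and 0.20 ± 0.095 with LP 3M PIC (0.0735, and 0.0445 with the mouse as a block). G6pdx overlaps Ikbkg on the other strand. Pgd fell by 0.29 ± 0.11 with LP PIC (0.0363), a call lost without mouse 1, 2 or 4 or the LP library of mouse 2 (0.0602 to 0.145). It was 0.16 ± 0.11 with LP 3M (0.238) and −0.22 ± 0.11 with LP 3M PIC (0.081, 0.0131 with the block, 0.0158 with plain library totals and 0.0378 without mouse 5), and LP 3M PIC was below LP 3M (−0.39 ± 0.11, 0.00753). Summed over both genes, the oxidative arm stood at 910 ± 37.8 CPM in LP, 804 ± 96.9 under LP PIC, 999 ± 92.3 under LP 3M and 804 ± 120.3 under LP 3M PIC.

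Taldo1 and Tkt code for transaldolase and transketolase, which return the sugars of the pathway to glycolysis. Taldo1 in LP held 636, 644, 720.1, 675 and 749 CPM in mice 1 to 5. It held 410.1, 412, 617, 402 and 599 CPM in LP PIC. It held 329, 346, 484, 416 and 712 CPM under LP 3M and 209.9, 213, 332, 268 and 484 CPM in LP 3M PIC. The LP 3M PIC and LP PIC libraries were all below the LP libraries, and mouse 5 was the highest of its group in LP, LP 3M and LP 3M PIC. Taldo1 fell by 1.08 ± 0.22 with LP 3M PIC (adjusted p = 0.000314). Its changes of −0.45 ± 0.22 with LP PIC (0.106) and −0.48 ± 0.22 with LP 3M (0.089, 4 of 5 mice) were not called, but were with the mouse as a block (0.00151 and 0.000746) and without mouse 5 (0.0233 and 0.00581), as was the latter without only its LP 3M library (0.0133). The LP PIC change was also called in a fit of the LP PIC and LP libraries alone (0.0225). The LP 3M change was also called with plain library totals (0.0466). Tkt fell by 0.36 ± 0.11 with LP PIC (0.0108, 4 of 5 mice, lost without mouse 1 or 4 at 0.0804 and 0.0940) and by 0.40 ± 0.11 with LP 3M PIC (0.00307). With LP 3M it was 0.19 ± 0.11 (0.174, and 0.0495 in a fit of the LP 3M and LP libraries alone). LP 3M PIC was below LP 3M by −0.59 ± 0.11 (0.000271). Summed, the non-oxidative arm stood at 1143 ± 42.9 CPM in LP, 836 ± 173.8 under LP PIC, 942 ± 171.5 under LP 3M and 623 ± 155 under LP 3M PIC.

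Me1, the cytosolic malic enzyme that makes NADPH outside the pentose phosphate pathway, held 22.0, 25.5, 30.0, 23.5 and 27.4 CPM in LP in mice 1 to 5. LP PIC libraries held 21.3, 25.2, 37.2, 18.9 and 31.6 CPM. LP 3M libraries held 35.0, 38.9, 53.1, 45.5 and 41.2 CPM and LP 3M PIC libraries 41.3, 42.4, 71.4, 55.2 and 53.2 CPM. All LP 3M and LP 3M PIC libraries were above all LP libraries, and LP PIC spanned the LP range. Me1 rose by 0.84 ± 0.18 with LP 3M (adjusted p = 0.000986) and 1.14 ± 0.18 with LP 3M PIC (1.73e-05) and was 0.10 ± 0.18 with LP PIC (0.667, 4 of 5 mice). LP 3M PIC was above LP PIC by 1.04 ± 0.18 (0.00013).

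The metallothioneins Mt1 and Mt2 code for small proteins that bind zinc and copper and scavenge oxidants. Mt2 in LP was at 18.2, 20.8, 25.0, 26.4 and 31.8 CPM in mice 1 to 5. It was at 8.84, 10.5, 13.7, 8.47 and 16.5 CPM in LP PIC and at 26.3, 29.1, 18.5, 21.9 and 24.8 CPM in LP 3M. In LP 3M PIC it was at 19.5, 46.7, 7.73, 12.1 and 14.4 CPM, with mouse 2 above and mice 3, 4 and 5 below all LP libraries. Mt2 fell by 1.04 ± 0.35 with LP PIC (adjusted p = 0.0217), a call lost without mouse 1 (0.0597) or mouse 4 (0.105). It was not called with LP 3M (0.087 ± 0.34, 0.864, 2 of 5 mice, and −0.023 with plain library totals) or LP 3M PIC (−0.15 ± 0.34, 0.714, 3 of 5 mice, and 0.069 without mouse 3). Without mouse 2, whose library was the high one, the LP 3M PIC change was −0.80 and was called (0.015). Mt1 averaged 112 ± 11.4 CPM in LP, 73.6 ± 16.9 under LP PIC, 85.2 ± 13.7 under LP 3M and 61.4 ± 18.6 under LP 3M PIC. It fell by 0.56 ± 0.18 with LP PIC (0.0169, and 0.0706 and 0.0641 without mouse 1 and 4) and by 0.75 ± 0.18 with LP 3M PIC (0.00142), and was −0.28 ± 0.18 with LP 3M (0.226).

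Within a condition, the same libraries were often the highest or lowest across members. With LP PIC, mouse 3 was the highest of the 5 libraries in 20 of the 33 members, where it was so in 16.9% of all tested genes, and mouse 4 the lowest in 18, against 30.0% of all genes. With LP 3M, mouse 5 was the highest in 20 members, against 33.8% of all genes. Under LP 3M PIC, mouse 1 was the lowest in 18 members and mouse 5 the highest in 18, against 18.1 and 32.3%. In LP the most often highest library, that of mouse 5, led in 10 members.

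Of 83 other genes of these pathways, listed by function, 76 were tested. With LP PIC 18 rose and 16 fell (23.7 and 21.1%, against 22.7 and 22.7% of all genes). With LP 3M 27 rose and 11 fell (35.5 and 14.5%, against 20.0 and 19.5%). With LP 3M PIC 30 rose and 25 fell (39.5 and 32.9%, against 31.7 and 30.6%). The medians were 0.065, 0.10 and −0.011, near those of all genes. Of the 6 NADPH oxidase genes, whose product makes superoxide, 3 rose with LP PIC (50%, against 22.7% of all genes) and 5 each with LP 3M and LP 3M PIC (83.3%, against 20.0 and 31.7%), and none fell. Cybb, its catalytic subunit, averaged 1071 ± 148 CPM in LP and 2921 ± 423, 3493 ± 216 and 3892 ± 196 under the PIC, 3M and dual formulations (log2 changes 1.48 ± 0.11, 1.81 ± 0.11 and 1.97 ± 0.11, adjusted p = 6.92e-09, 7.03e-10 and 6.91e-11). Rac2, a GTPase that activates it, rose from 416 ± 43.5 CPM in LP to 1048 ± 249 with LP 3M (adjusted p = 1.04e-05) and by 1.63 ± 0.19 (5.53e-07) with LP 3M PIC, and was not called with LP PIC (375 ± 41.4 CPM).

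In the mitochondrion, Sod2, the manganese superoxide dismutase, and Prdx5, a peroxiredoxin, rose with every formulation. Sod2 went from 78.0 ± 10.4 CPM to 609 ± 144, 1070 ± 182 and 1681 ± 183 with the PIC, 3M and dual formulations (log2 changes 3.00 ± 0.17, 3.89 ± 0.18 and 4.54 ± 0.19, adjusted p = 6.27e-10, 2.89e-11 and 1.9e-12). Prdx5 went from 172 ± 26.1 CPM to 771 ± 96.5, 659 ± 142 and 1534 ± 184 (log2 changes 2.20 ± 0.16, 2.04 ± 0.16 and 3.26 ± 0.17, adjusted p = 6.52e-09, 1.33e-08 and 2.2e-11). Of the other peroxide, superoxide and thioredoxin genes, 15 of 17 were tested, and 5 rose and 6 fell with LP 3M PIC (33.3 and 40.0%, against 31.7 and 30.6% of all genes).

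Hmox1, the heme oxygenase that BACH1 represses and NRF2 induces, averaged 900.4 ± 302 CPM in LP, 1106 ± 123 under LP PIC, 1871 ± 641 under LP 3M and 2920 ± 527 under LP 3M PIC. It rose by 1.18 ± 0.23 with LP 3M (adjusted p = 0.000514) and 1.82 ± 0.23 with LP 3M PIC (1.81e-06), and was not called with LP PIC. Ephx1, an epoxide hydrolase, fell by 1.08 ± 0.33 with LP 3M (0.0146, and 0.0658 and 0.0586 without mouse 1 and 4) and by 2.06 ± 0.35 (4.72e-05) with LP 3M PIC. Maff, a further small MAF gene, rose with every formulation, from 1.98 ± 0.876 CPM to 6.18 ± 0.609, 8.52 ± 1.09 and 25.7 ± 7.81 (log2 change with LP 3M PIC 3.76 ± 0.24, 3.33e-10). Bach2, the relative of Bach1, fell by 1.78 ± 0.42 with LP 3M (0.00248) and by 1.79 ± 0.43 with LP 3M PIC (0.00135). It was not called with LP PIC (0.727). Its mean went from 1.76 ± 0.445 CPM in LP to 0.467 ± 0.262 and 0.497 ± 0.423. Its LP 3M PIC values ran from 0.139 CPM in mouse 1 to 1.20 in mouse 3, the lowest of them near the floor of 3 counts (0.126 to 0.308 CPM).

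Among the other glutathione genes, 7 of the 19 tested rose and 5 fell with LP 3M PIC (36.8 and 26.3%, against 31.7 and 30.6% of all genes). Mgst3, a microsomal glutathione S-transferase, fell with the PIC, 3M and dual formulations, at −1.45 ± 0.28 (adjusted p = 0.000333), −1.36 ± 0.28 (0.000816) and −2.92 ± 0.30 (1.37e-07) on the log2 scale, from 82.2 ± 6.88 CPM in LP to 10.2 ± 4.39 under LP 3M PIC. Gstt1 rose by 3.43 ± 0.73 with LP 3M PIC (0.000477) from 0.384 ± 0.279 to 3.54 ± 2.69 CPM. Under LP 3M PIC it ran from 0.384 CPM in mouse 5 to 6.68 in mouse 1. Its LP values, 0 to 0.719 CPM, lay near the floor of 3 counts (0.126 to 0.308 CPM). Of the other NADPH genes, Nadk, the kinase that makes NADP from NAD, rose by 0.91 ± 0.080 (3.53e-08), 1.19 ± 0.081 (2.52e-09) and 1.05 ± 0.080 (2.5e-09), while Idh1, a cytosolic source of NADPH, fell by 1.08 ± 0.19 with LP 3M PIC (6.78e-05) and was not called with the single formulations, though it was lower with LP 3M with the mouse as a block (0.0223). Of the metal handling genes, the zinc importer Slc39a14 rose by 1.65 ± 0.25 (1.2e-05) and its relative Slc39a10 fell by 1.00 ± 0.16 (1.76e-05) with LP 3M PIC.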

How the data were processed

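RNA of 20 macrophage cultures (5 mice, 4 conditions) was made into stranded poly(A) libraries, per the labels' protocols. The authors deposited a raw count per gene, with no normalisation. Their tools, per the submitters' processing notes, were STAR 2.7.11b, HTSeq 0.13.5 and FastQC 0.11.1, then DESeq2 1.44.0, on GRCm38. No source used here gives the annotation or the strand setting of the counting, so a gene and one overlapping it may share reads. Entries for reads in no gene (5.94 to 8.58%) or in several (1.14 to 1.90%) were left out.

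Genes were kept by filterByExpr (minimum count 10, minimum total 15), which left 12132 genes with 99.969% of the counts, scaled by TMM (factors 0.945 to 1.07) and tested with edgeR 4.0.16 (R 4.3.3, limma 3.58.1), quasi-likelihood F-test, robust, two-sided, with 1 mean per condition over all 20 libraries, 7 contrasts and Benjamini-Hochberg adjustment at 0.05. The SE is the absolute log2 change over the square root of F. CPM use plain library totals, and a mouse's direction uses TMM-scaled CPM. Totals of 9740528 to 23874805 counts put a floor of 3 counts at 0.126 to 0.308 CPM, which covers counting error only. No library repeated another (chi-squared per degree of freedom at least 7.73 over 190 pairs). Further steps used Python 3.11.15 (pandas 2.3.3, numpy 2.4.6, matplotlib 3.10.9).

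The labels give the mouse of each library. Deviations from the group means correlated at 0.137 to 0.541 between libraries of 1 mouse (median 0.399, 30 pairs). Between mice they correlated at −0.404 to 0.375 (median −0.152, 120 pairs). By their medians the numbers pair the libraries as the labels do, though the ranges overlap. Alternatives were the mouse as a replicate block, DESeq2 1.42.0, RLE factors, plain totals, no filter on low counts, only the groups compared, each mouse left out, and the LP library of mouse 2 or the LP 3M library of mouse 5 left out. On counts simulated for LP PIC minus LP over 12027 genes, 22 of 50 genes changed 1.5-fold, 46 of 50 changed 2-fold, 50 of 50 changed 4-fold and 46 of 50 lowered to 0.5 were called, with 11 false calls. The simulated libraries had no effect of the mouse, and far fewer genes were changed than the 5517 called with LP PIC in the data. These numbers hold for that setting and do not give the error rate in the data.

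Members and lists were chosen with earlier results of these data known. Values in every library are given for members called against LP or in the interaction with an absolute log2 change of at least 1, group values for Nfe2l2, Keap1, Bach1, Mafg and Mafk, and of each other list the 2 called genes with the largest change in LP 3M PIC minus LP are named. Coordinates are from GENCODE M21 on GRCm38, promoter sequences from RefSeq (GRCm38.p6).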

Additional observations from a re-analysis of the deposited data

Results flagged for a closer look

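In 8 of the 132 sets of 5 libraries (33 members, 4 conditions) 1 library stood further from the rest than Dixon's test allows at 95%, and chance alone flags about 1 set in 20. In LP, mouse 5 was high for Gclc (77.8 CPM, the others 60.0 to 62.2), Gsr (89.1 CPM, the others 67.8 to 73.2) and Cat (622 CPM, the others 544 to 566). With LP 3M PIC, mouse 5 was high for Sod1 (192 CPM, the others 128 to 144) and Blvra (78.2 CPM, the others 61.3 to 64.0), and with LP 3M for Gpx4 (282 CPM, the others 234 to 242). With LP PIC, mouse 4 was low for Abcc1 (124 CPM, the others 200.1 to 225) and mouse 3 high for Prdx1 (2951 CPM, the others 2148 to 2303).

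For 3 members the change made by PIC differed between particles with and without 3M by the interaction of edgeR's quasi-likelihood test. These were Slc7a11 (−1.96, adjusted p = 0.00628, 5 of 5 mice), Gpx1 (−0.58, 0.0302, 5 of 5 mice) and Osgin1 (1.05, 0.000359, 5 of 5 mice). Without mouse 1 the Slc7a11 interaction was not called (0.0677), and that of Gpx1 was lost without mouse 1, 2, 3 or 4 or the LP library of mouse 2 (0.0532 to 0.170).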

How the results depend on the processing

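The 119 calls of members over the 7 comparisons were recomputed under 13 alternatives (12 for the interaction, which needs all 4 groups): 81 stood in every one, 38 were lost in at least 1 and 0 reversed. DESeq2 and RLE factors lost 0, plain library totals 12, no filter on low counts 11, only the groups compared 8, and the replicate block 1 (Mt2 in LP 3M PIC minus LP PIC, adjusted p = 0.0872). Leaving out mouse 1 to 5 in turn lost 26, 15, 15, 34 and 9, and without the LP library of mouse 2 or the LP 3M library of mouse 5 the losses were 6 and 7. The cause of each loss was not tested.

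With the replicate block, which pairs the libraries by mouse, 22 further member results were called. Fallen members with LP 3M went from 2 to 5, and positive and negative interactions from 1 and 2 to 2 and 4. Among all genes, those fallen with LP 3M went from 2368 to 2819. Over all genes the interaction was called in 1023, with the block in 1656, and without 1 mouse or library in 182 to 1398. With plain library totals, which moved the median of all genes with LP 3M from −0.013 to −0.12 and with LP 3M PIC from 0.016 to −0.095, 3 members rose with LP PIC and 5 fell with LP 3M. With only the groups compared, 9 members were higher with LP 3M PIC than with LP PIC. Over all genes, those higher went from 2805 of 12132 to 2293 of 11735.

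Without 1 mouse or library, the members that rose and fell numbered 3 to 7 and 7 to 14 with LP PIC, and 13 to 14 and 1 to 5 with LP 3M. Over all genes, 12119 to 12252 tested, those with LP PIC numbered 2132 to 2804 and 2063 to 2784. Those with LP 3M numbered 1827 to 2581 and 1663 to 2567. With LP 3M PIC the members numbered 12 to 13 and 8 to 11 against LP, 6 and 4 to 11 against LP 3M, and 10 to 14 and 4 to 6 against LP PIC. Over all genes these were 3408 to 3886 and 3305 to 3754 against LP, and 1938 to 2486 and 1906 to 2545 against LP 3M. Against LP PIC they were 2131 to 2845 and 1904 to 2661. LP 3M against LP PIC gave 12 to 20 higher and 1 to 4 lower, and the interaction 1 positive and 0 to 4 negative. Over all genes these were 2171 to 2965 higher and 2038 to 2799 lower, and 60 to 616 positive and 122 to 782 negative.

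The direction turned in 9 results, none of them called. Without 1 mouse or library, the log2 change ran from −0.16 to 0.013 for Abcc1 and −0.039 to 0.22 for Nqo1 with LP PIC, and from −0.059 to 0.010 for Blvra and −0.050 to 0.19 for Mt2 with LP 3M. With LP 3M PIC it ran from −0.020 to 0.10 for Keap1, −0.016 to 0.10 for Gclm, −0.073 to 0.18 for Srxn1, −0.10 to 0.12 for Prdx6 and −0.80 to 0.069 for Mt2. Plain library totals gave −0.023 for Mt2 with LP 3M, and −0.068 for Keap1, −0.059 for Gclm, −0.048 for Srxn1 and −0.052 for Prdx6 with LP 3M PIC. The lowest count of a member in a library was 53, and counting error was not set against the spread between mice. Of the 33 called changes against LP among the other named pathway genes, 3 were lost in at least 1 alternative: Ephx1 with LP 3M and Slc39a10 with both single formulations.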
